A study of Danio rerio with 4 samples.

Results

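The cells described here are those that the authors' annotation of the embryonic zebrafish heart calls "Cardiac peripheral nerves". There were 937 of them among 34676 annotated cells, and they were compared between 48 and 72 hours post fertilization (hpf). The embryos came from crosses of an enhancer trap line, sqet31Et or sqet33mi59BEt, with Tg(myl7:mRFP). In all libraries EGFP therefore marked the atrioventricular canal or the sinoatrial region, and mRFP, driven by a cardiomyocyte promoter, marked the heart muscle. Hearts were freed by shearing whole embryos, sieved, and picked by hand under fluorescence, and each line and stage gave 1 droplet library from a pool of hearts. The nerve cells numbered 376 (sqet31Et) and 208 (sqet33mi59BEt) at 48 hpf, and 227 (sqet31Et) and 126 (sqet33mi59BEt) at 72 hpf. In what follows, 4 values of a gene are always given in this order. The replicates of a stage were thus 2 pools of different lines, which the authors call pseudo-replicates, and p-values measure the spread between these pools only.

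The heart of the zebrafish receives vagal and sympathetic fibres, and holds intrinsic neurons that derive mostly from the neural crest. Autonomic neurons are known by the transcription factor Phox2a, by noradrenergic genes such as th and dbh, or by cholinergic genes. The glia that ensheathe their axons are known by sox10, erbb3b and the myelin genes. Newly born neurons carry Sox11 and Sox4 factors and the RNA-binding protein elavl3, and on maturing they add synaptic vesicle proteins and ion channels.

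The label was checked against these markers. The cells were neurons by their most abundant markers: summed over the neuron list (28 of 31 identifiers tested) the level was 21738, 18394, 17304 and 16568 CPM (UMI counts of a gene scaled to a common library sum, with TMM factors), against 602 to 750 CPM in all other annotated cells of the same libraries. This list holds tuba1c and elavl3, by which the study defines the cluster, so the sum is in part no independent check of the label. Of the autonomic markers, phox2a had 21.0, 63.3, 23.7 and 43.7 CPM, and th and dbh lay between 0 and 21.8 CPM. SLC18A3 (ENSDARG00000006356), the vesicular carrier of acetylcholine, had 23.8, 211, 23.7 and 7.28 CPM in nerves and at most 0.259 CPM in other cells, and at 48 hpf its level in nerves was the highest of the 16 clusters with at least 100000 UMIs. The cluster Neuronal cells was not among these 16. Summed over the autonomic list (22 identifiers, 7 tested) the level was 1104, 1711, 746 and 932 CPM in nerves, above the 606, 678, 367 and 387 CPM of other cells in every library. A large part of this sum at 48 hpf came from isl1 (263 CPM of the raw cluster sum) and the INSM1 copies (246 and 241), against 38.5 for phox2a. Isl1 is also in the list of retinal ganglion cell genes and INSM1 in that of proneural factors, so the sum is not particular to autonomic neurons. The Schwann cell markers erbb3b, mpz and mbpa had no UMI in any nerve library, and sox10 had between 0 and 2.64 CPM. Summed over the list of Schwann cell and crest-derived glia genes, nerves had 58.8, 71.2, 97.2 and 160 CPM. Other cells had 226, 407, 322 and 396 CPM of this list, more than nerves in every library. GABA-ergic genes were present in all libraries, with slc32a1, the vesicular GABA carrier, at 272, 137, 160 and 167 CPM. Genes that pattern the retina and brain were present as well, among them lhx2b at 148, 271, 57.8 and 36.4 CPM, and the bipolar cell factor vsx1 at 15.4, 385, 494 and 444 CPM. With every cell thinned to 500 UMIs, phox2a was found in 1.33, 0.962, 0.441 and 2.38% of the nerve cells and in 0 Erythrocytes of every library, which allows shares of up to 1.71, 0.815, 2.04 and 0.435% of them. The cluster thus carried neuronal genes, in part those that define it, with th, dbh and the Schwann cell markers erbb3b, mpz, mbpa and sox10 at or near 0. The Schwann cell list as a whole lay below its level in other cells. The autonomic list lay above its level there, in part through isl1 and INSM1. Retina and brain genes were found in the same cluster, so "nerves" below stands for the deposited name only.

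Nerve cells gave 736236, 423294, 438152 and 139250 UMIs in sum, with a median per cell of 990.5, 996, 1569 and 868.5. The difference of the stage means, 225.5 UMIs per cell (72 minus 48 hpf), was below the spread between libraries of a stage (SD 350, exact permutation test, two-sided p = 1, n = 2 libraries a stage, for which 0.333 is the smallest p possible). At 500 UMIs per cell the median was 335, 323, 312 and 342 genes, a difference of -2 genes (p = 1 in the same exact test). The authors' phase calls put 42.02, 49.5, 40.5 and 51.6% of the cells in S or G2M, a difference of 0.288 percentage points (p = 1, exact). Among cells with at least 1000 UMIs the difference was 14.0 points (p = 0.333, exact, the smallest possible), and no cycling is read from phase calls alone. The median share of mitochondrial UMIs was 7.42, 7.80, 17.1 and 7.32%, so the 72 hpf sqet31Et library stood apart from the other 3, and 1 nerve barcode in each 48 hpf library was also annotated in another library.

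In the nerve cells 70 of 4625 genes tested differed between the stages (edgeR quasi-likelihood test, adjusted p under 0.05), which is 1.51% of the genes. Of these, 57 (1.23%) were higher and 13 (0.281%) lower at 72 hpf, and 721 genes had an unadjusted p under 0.05. The libraries of the 2 stages did not overlap for any of the 70 genes. The genes that fell were CXCR4, alcama, alcamb, PAX2, pou3f1, SOX11, zfhx3a, OTP, MAB21L1, pou2f2b, hbbe3, hsp70l and HSPA2. Those that rose formed a set of retinal photoreceptor and bipolar cell genes (9 genes), a set of liver and pancreas genes (20), and 28 others. The lists of retina, liver and pancreas genes were drawn up after the values had been seen, so their counts describe the 57 genes and are no test.

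The genes that fell were led, apart from a hemoglobin gene, by CXCR4 (ENSDARG00000041959), a receptor for the chemokine Cxcl12 that guides migrating cells. It had 202, 224, 21.0 and 7.28 CPM in the nerve cells. The log2 fold change was -3.64 ± 0.49 (SE, adjusted p = 0.0166). In all other cells it stayed between 6.27 and 10.9 CPM, and the stage effect in nerves differed from that in other cells by -3.91 on the log2 scale (adjusted p = 1.05e-09, interaction in edgeR with the library as a term). Among the annotated clusters with at least 100000 UMIs at 48 hpf, 16 in number and without the cluster Neuronal cells, the nerves had the highest CXCR4 level (198 CPM of the raw cluster sum, with Leukocytes at 191). The other identifier with this symbol had no UMI in any nerve library.

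The adhesion molecules alcama and alcamb, immunoglobulin superfamily proteins that hold growing axons together in bundles, fell as well. Alcama had 672, 1033, 155 and 138 CPM (log2 fold change -2.52 ± 0.36, adjusted p = 0.0166), and alcamb had 161, 221, 49.9 and 29.1 CPM (-2.15, adjusted p = 0.0496). In other cells alcama had 678, 611, 451 and 299 CPM. The stage effect in nerves differed from that in other cells by -1.998 for alcama (adjusted p = 3.83e-11) and by -2.49 for alcamb (adjusted p = 6.24e-06, interaction in edgeR). Alcamb did not fall in other cells (0.173, adjusted p = 0.80 in edgeR). For alcama the effect differed from that in Neural crest cells by -3.94 (adjusted p = 7.37e-15), more than its fall in nerves. For alcamb the difference from crest cells did not pass the interaction test (-0.745, adjusted p = 0.745). Alcama was not a gene of nerves alone, since AV cushion cells had the highest level at 48 hpf.

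The remaining neural genes that fell code for transcription factors or regulators. PAX2 (ENSDARG00000028148), a factor of the midbrain-hindbrain boundary and the optic stalk, had 158, 258, 15.8 and 36.4 CPM (-3.18 ± 0.53, adjusted p = 0.0279). The POU factor pou3f1 had 441, 746, 105 and 80.1 CPM (-2.64 ± 0.40, adjusted p = 0.0195), and SOX11 (ENSDARG00000077811), which drives the early neuronal programme, had 1646, 1798, 518 and 641 CPM (-1.58 ± 0.28, adjusted p = 0.037). For zfhx3a, a homeodomain zinc finger factor of differentiating neurons, the values were 1088, 883, 294 and 211 CPM (-1.94, adjusted p = 0.0279). OTP (ENSDARG00000014201), a hypothalamic homeodomain factor, MAB21L1, a regulator of eye and brain development, and pou2f2b fell by between 1.83 and 2.36 on the log2 scale (adjusted p 0.0379 to 0.0435). For PAX2, pou3f1, SOX11, zfhx3a, OTP, MAB21L1 and pou2f2b the nerves had the highest level of the 16 clusters at 48 hpf. The cluster Neuronal cells was not part of this ranking, so nerves were not compared with those neurons. The difference from other cells passed the test for PAX2 (-3.28), zfhx3a (-1.35), pou2f2b (-1.87) and SOX11 (-1.15). It did not for pou3f1, which fell by 2.82 in other cells, where its level was lower, nor for OTP and MAB21L1.

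The last 3 genes that fell are not neural. The embryonic beta globin hbbe3 had 168, 174, 0 and 7.28 CPM in nerves, with a single UMI at 72 hpf, so that the level at 48 hpf was 88.1 times that at 72 hpf with a counting interval of 15.6 to 3498 (adjusted p = 0.0116). In Erythrocytes it had 1635, 1787, 17.3 and 95.7 CPM. The heat shock genes hsp70l (1438, 922, 297 and 393 CPM, -1.79, adjusted p = 0.0435) and HSPA2 (416, 440, 139 and 94.7 CPM, -1.82, adjusted p = 0.0404) fell in nerves. HSPA2 fell in other cells too (-1.53, adjusted p = 0.0469), and for neither did the difference between nerves and other cells pass the test. Of the 13 genes, 3 (pou3f1, MAB21L1 and HSPA2) were also lower in all other cells, a comparison in which 293 of 16710 genes (1.75%) were lower. This count depends on the threshold. Hbbe3 (-4.44, adjusted p = 0.0515 in edgeR), OTP (-2.10, 0.0524) and hsp70l (-1.62, 0.0588) fell in other cells too and lay just above it.

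Single libraries decided many of these calls. Without the 72 hpf sqet33mi59BEt library, the smallest, 10 of the 13 were no longer called. Alcama then had -2.47 (adjusted p = 0.0702), pou3f1 -2.50 (0.0977), zfhx3a -1.76 (0.121), alcamb -1.94 (0.142) and SOX11 -1.75 (0.105), with the direction kept. Without the 72 hpf sqet31Et library 5 of the 13 were lost, among them PAX2 (-2.57, adjusted p = 0.0606) and SOX11 (-1.51, 0.0668). CXCR4 and hbbe3 kept their calls when each of the libraries was left out in turn. Among cells with an elavl3 UMI, 12 of the 13 were not called (adjusted p 0.0548 to 0.171), hbbe3 being the exception, and CXCR4 then had -3.09 (adjusted p = 0.0548). With cells thinned to 500 UMIs 7 were not called, CXCR4 among them (-4.88, adjusted p = 0.0532), and 8 were not called among cells under 10% mitochondrial UMIs or among cells with at least 1000 UMIs. The differences from other cells were fitted on the sums of all nerve cells only, not in these subsets. For CXCR4 and alcama these differences held when each library was left out in turn. They were lost for PAX2 without the 48 hpf sqet33mi59BEt (adjusted p = 0.0705) or the 72 hpf sqet31Et library (0.161), for alcamb without 48 hpf sqet33mi59BEt (0.059), for zfhx3a without 48 hpf sqet31Et (0.0717), for pou2f2b without either 48 hpf library (0.112 and 0.156), and for SOX11 without either sqet33mi59BEt library (0.0755 and 0.116).

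**Figure D1:**
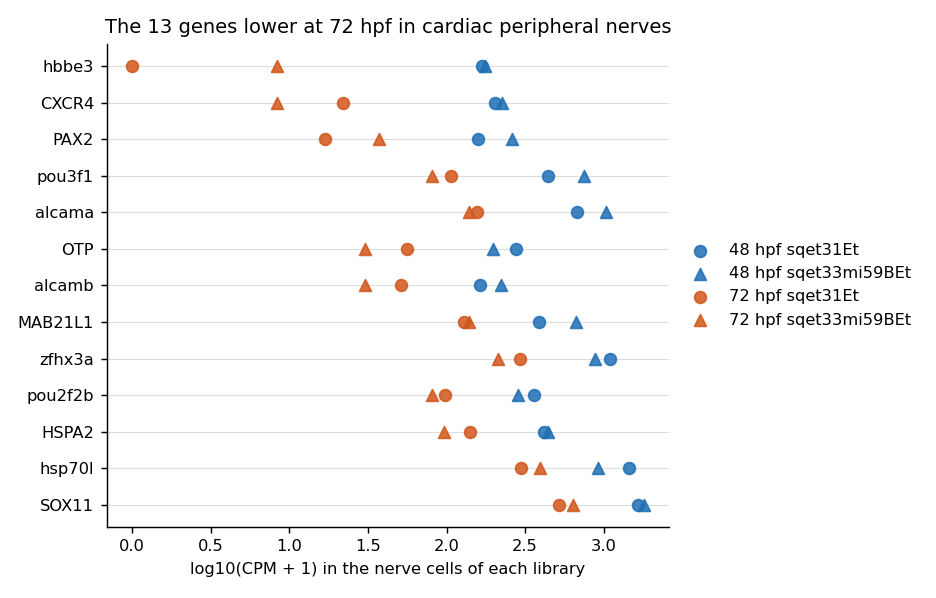
Level of the 13 genes that were lower at 72 hpf, as log10(CPM + 1) in the nerve cells of each library; blue, 48 hpf; orange, 72 hpf; circles, sqet31Et; triangles, sqet33mi59BEt. For every gene both 72 hpf libraries lie to the left of both 48 hpf libraries, from hbbe3, with no UMI in 1 of them, to SOX11.

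The larger lists of neuronal development genes lay mostly lower at 72 hpf as well, with few single genes passing the test. Over all 4625 genes the median log2 fold change was 0.01. Counts and medians of a list cover the members that passed the filter on low counts and describe those only. Both 72 hpf libraries lay below both 48 hpf libraries for 24.1% of the genes and above them for 23.5%. Of 25 proneural and neuronal transcription factors tested, 2 fell (pou3f1 and SOX11), none rose, and 14 had no overlap on the lower side against 1 on the higher side (median -0.63). The second SOX11 copy (ENSDARG00000095743) had 1191, 1808, 560 and 379 CPM (-1.66, adjusted p = 0.0584), and ebf3a, a factor of differentiating neurons, had 1118, 1173, 914 and 546 CPM (-0.63, adjusted p = 0.39). An exception was neurod1, with 101, 100, 255 and 896 CPM (2.47, adjusted p = 0.0743). Of 38 regional homeobox and patterning genes 1 (PAX2) fell and none rose, and 20 were without overlap on the lower side against 2 on the higher (median -0.94). Their most abundant members were pbx1a (653, 532, 378 and 277 CPM) and pbx4 (506, 622, 344 and 124 CPM), Hox cofactors whose changes did not pass the test. Both lists lay lower in all other cells too, with medians of -1.07 (proneural) and -1.25 (homeobox). There 4 of 29 and 15 of 53 members tested were lower, as were 1.75% of all genes. Against other cells, 1 of 32 proneural genes had the higher stage effect in nerves and 4 the lower. Of 59 homeobox genes 5 had the higher and 2 the lower, against 0.607% and 0.924% of all genes.

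Axon guidance and growth genes (44 tested) held 2 genes that fell, alcama and alcamb, and 17 without overlap on the lower side against 4 on the higher, with a median of -0.57. Over all genes tested 0.281% fell, and 24.1% lacked overlap on the lower and 23.5% on the higher side. The growth cone protein gap43 had 833, 659, 434 and 350 CPM (-0.92, adjusted p = 0.198). The receptors that the study names for these cells did not pass the test. Plxna3 had 139, 140, 65.7 and 72.8 CPM, robo1 190, 145, 126 and 36.4, and robo2 134, 97.5, 105 and 21.8 CPM. NCAM1 (ENSDARG00000056181) had 153, 153, 71.0 and 87.4 CPM, and fgfr2, fgfr3 and fgfr4 ranged from 13.2 to 65.5 CPM. Sdc4, a cell surface proteoglycan that binds midkine, lay higher at 72 hpf (93.8, 105, 252 and 291 CPM, 1.44, adjusted p = 0.0787). At 48 hpf nerves had the lowest sdc4 level of the 16 clusters ranked (92.8 CPM of the raw cluster sum, against 1503 in Bulbus arteriosus). Plxna3, robo1, robo2 and this NCAM1 copy were highest in nerves in that ranking, which did not hold the cluster Neuronal cells. In the list of midkine, Fgf, Slit and semaphorin signals, 3 of 19 genes tested fell (CXCR4, alcama and alcamb) and none rose. This list was built around genes that the study reports from these samples, so it is no independent evidence of a direction.

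None of the general neuronal genes passed the test. No gene of the neuron list (28 tested) was called, with 10 lacking overlap on the lower side and 6 on the higher, and a median of -0.10. The shares without overlap over all genes were 24.1% on the lower and 23.5% on the higher side. Tuba1c, a neuronal tubulin by which the study defines the cluster, had 3940, 2662, 2573 and 3700 CPM (-0.08 ± 0.31, adjusted p = 0.932). Elavl3, the other defining gene, had 2066, 2364, 1359 and 714 CPM (-1.08 ± 0.34, adjusted p = 0.173), and passed the test without the 72 hpf sqet31Et library (-1.72, adjusted p = 0.044) or without a filter on low counts (-1.30, 0.00861). Without 72 hpf sqet33mi59BEt it had -0.72 (adjusted p = 0.473), and among cells under 10% mitochondrial UMIs -0.62 (0.693). For elavl3 both 72 hpf values thus lay below both 48 hpf values. Of 29 microtubule and neurofilament genes none was called, and 13 lacked overlap on the lower side against 2 on the higher (median -0.33). Neural progenitor genes (18 tested, none called, median 0.13) and Notch pathway genes (11 tested, none called, median -0.18) were near the median of all genes, and the lists of S phase (8 tested, 0.43) and G2 and M phase genes (6 tested, 0.25) held no call either.

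Lists of neuronal function and metabolism lay on the other side. Over all genes tested in nerves 1.23% rose and 0.281% fell, and 23.5% lacked overlap on the higher and 24.1% on the lower side. Of 28 synaptic vesicle and release genes tested, 2 rose (vamp1a and CPLX4) and none fell, 12 lacked overlap on the higher side against 2 on the lower, and the median was 0.53. Both genes that rose are also in the retina list. Abundant members such as sncb (688, 440, 618 and 488 CPM) and syt1a (384, 203, 360 and 291 CPM) were not called. In all other cells the median of the synaptic list was 0.93, with 5 of 33 members tested higher and 1 lower (5.09% and 1.75% of all genes). Of 37 members tested for a difference from other cells, 0 had the higher stage effect in nerves and 5 the lower (0.607% and 0.924% of all genes). Of 16 ion channel and pump genes 1 rose, GRIN1 (ENSDARG00000025728), a subunit of the NMDA receptor, with 11.2, 7.91, 126 and 80.1 CPM (3.39 ± 0.52, adjusted p = 0.0195, and not called without the 72 hpf sqet31Et library, at 2.90). The median of the ion channel list was 0.36 in nerves and 0.58 in all other cells. Of 17 glycolysis genes none was called, but 13 lacked overlap on the higher side and none on the lower (median 0.69), with gapdhs at 573, 456, 812 and 1005 CPM. Of 12 cholesterol and lipid supply genes 3 rose, all apolipoproteins of the liver list, and none fell (median 0.88). Among 80 ribosomal protein genes none was called, with 24 lacking overlap on the lower side and 4 on the higher (median -0.19). The count on the lower side was near the share over all genes. In the stress and immediate early list (24 tested) 1 gene fell, hsp70l, and 10 lacked overlap on the higher side against 4 on the lower (median 0.62). FOS, an immediate early gene that rose, was not among the identifiers matched to this list. The 13 mitochondrially encoded genes had a median of 1.14 with no call, and their summed level of 51611, 69573, 163200 and 72796 CPM set the 72 hpf sqet31Et library apart; the part of this library's mitochondrial share in the other results was not tested beyond the fit on cells under 10% mitochondrial UMIs.

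**Figure D2:**
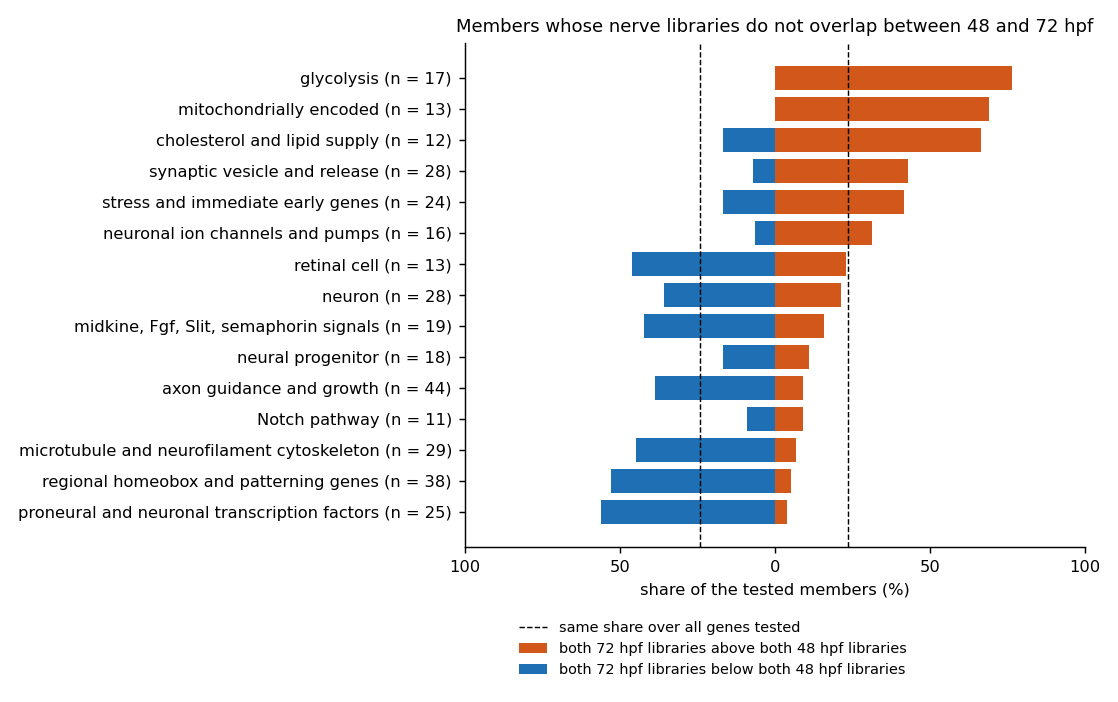
Share of the tested members of 15 gene lists for which both 72 hpf nerve libraries lay above (orange, to the right) or below (blue, to the left) both 48 hpf libraries, in percent, with n the number of members tested. Dashed lines mark the same shares over all genes tested, 23.5% and 24.1%; glycolysis genes lie far to the right of the first line, and the 2 lists of transcription factors far to the left of the other.

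Genes of photoreceptors and bipolar cells, the neurons of the outer and inner retina that signal through ribbon synapses, rose in nerves. Most of those called reached levels far above those in the rest of the heart sample. Pvalb5 was an exception, with 733 and 517 CPM in nerves at 72 hpf against 240 and 292 CPM in other cells. Gnb3a, the G protein beta subunit of cones and of some bipolar cells, had 2.80, 7.91, 1054 and 146 CPM (6.95 ± 1.03, adjusted p = 0.0192). Rs1a codes for retinoschisin, which is secreted by both cell types, and had 1.40, 10.5, 1049 and 182 CPM (6.95 ± 1.02, adjusted p = 0.0187). Both were high at 72 hpf in sqet31Et, clearly lower in sqet33mi59BEt, and near 0 at 48 hpf. In all other cells the highest value was 4.97 CPM for gnb3a, and the stage effects in nerves and in other cells differed by 3.91 (adjusted p = 1.76e-05) and 3.20 (adjusted p = 0.0248). Of the 20 genes of the retina list tested for such a difference 6 passed, all with the higher effect in nerves, as did 0.607% of all genes tested. The list was drawn up with these values known, so its count is a description. Both genes kept their stage call in nerves when each library was left out in turn. The difference from other cells was lost for both when either sqet31Et library was left out, with adjusted p between 0.403 and 1.

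The transcription factor crx, which acts in both cell types, had 14.0, 21.1, 318 and 80.1 CPM (3.63 ± 0.65, adjusted p = 0.037), while other cells did not exceed 2.70 CPM. The call was lost without the 72 hpf sqet31Et library (2.14, adjusted p = 0.155). A separate identifier named CRX moved alike (8.40, 7.91, 116 and 43.7 CPM, adjusted p = 0.0404). For crx and CRX the stage effects in nerves and in other cells differed by 4.23 (adjusted p = 6.01e-07) and 4.77 (adjusted p = 0.000366). The difference held for crx without each library in turn, and was lost for CRX without the 48 hpf sqet31Et (adjusted p = 0.0871) or the 72 hpf sqet31Et library (0.145). Vsx1, the bipolar cell factor, had 15.4, 385, 494 and 444 CPM. It was already high in 1 of the 48 hpf libraries, and its stage effect was not called (1.28, adjusted p = 0.589).

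Genes of vesicle release and calcium binding completed this group. CPLX4 (ENSDARG00000059978), a complexin of retinal ribbon synapses, had no UMI at 48 hpf and 210 and 87.4 CPM at 72 hpf, at least 54.2-fold higher when 3 counts over the stage are taken as the floor. For syt5a, a synaptotagmin, the increase was at least 22.3-fold, and for calb2a, a calretinin, at least 30.2-fold. The vesicle protein vamp1a had 14.0, 31.6, 323 and 124 CPM (3.43, adjusted p = 0.0298), and pcp4l1, a small calmodulin-binding protein, had 4.202, 15.8, 223 and 80.1 CPM (4.18, adjusted p = 0.0263). Without the 72 hpf sqet31Et library vamp1a (adjusted p = 0.0852) and pcp4l1 (0.134) were lost, and CPLX4, syt5a and calb2a were too low to be tested. Gnb3a, rs1a, crx, CRX, CPLX4, syt5a, vamp1a and pcp4l1 all had their highest level of 18 clusters at 72 hpf in the nerves. Pvalb5 and calb2a did not, as both were highest in the cluster Neuronal cells, and both also rose in other cells, pvalb5 to 240 and 292 CPM. Of the 9 retina list genes that rose in nerves, 3 also rose in other cells, where 5.09% of all genes did. Rs1a was among them (3.57, adjusted p = 0.0353, edgeR), at no more than 3.02 CPM, and CPLX4 and syt5a were not tested there. Crx was not called among cells under 10% mitochondrial UMIs (2.03, adjusted p = 0.31), where gnb3a and rs1a were (both 0.0051). Among cells with at least 1000 UMIs gnb3a (7.85, adjusted p = 0.0576) and rs1a (8.62, adjusted p = 0.0701) were just above the threshold, and among cells with an elavl3 UMI these 3 genes were too low to be tested.

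Several genes of the photoreceptor outer segment were not detectable at this depth. Of the 42 identifiers of this list 17 had no UMI in any nerve library, among them gnat1, gnat2, pde6c, opn1sw2, opn1mw1 and opn1lw1. Of the 17 members tested, 9 rose and none fell. The summed level of the list was 576, 1052, 7111 and 2272 CPM in nerves. At far lower levels it was also higher at 72 hpf in other cells (54.1, 43.7, 326 and 357 CPM) and in Neural crest cells (24.0, 21.8, 114 and 184 CPM). Of 17 list genes tested for a difference from crest cells 0 passed, where 2.93% of all genes did, so this count is near the background. Among them were gnb3a (2.21, adjusted p = 0.922, edgeR interaction) and rs1a (3.81, adjusted p = 0.975). Genes of retinal ganglion cells, the output neurons of the retina, lay on the lower side: of 11 tested 1 fell (alcama), none rose and 10 lacked overlap on the lower side. Of all genes tested 0.281% fell and 24.1% lacked overlap on that side. The ganglion cell list, drawn up with the values known so that its count is a description, had a summed level of 5502, 5564, 2862 and 1690 CPM. It includes isl1 (336, 224, 137 and 65.5 CPM, -1.39, adjusted p = 0.158) and RBPMS2 (ENSDARG00000079578), with 560, 195, 81.5 and 43.7 CPM (-2.51, adjusted p = 0.075), whose stage effect differed from that in other cells by -2.17 (adjusted p = 4.19e-08). This RBPMS2 copy was not a gene of nerves alone. At 48 hpf Myocardium had 1451 CPM of the raw cluster sum, against 359 in nerves.

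The second large group that rose were genes of hepatocytes and exocrine pancreas. Fabp10a, the fatty acid binding protein of liver, had no UMI at 48 hpf and 315 and 284 CPM at 72 hpf, at least 109-fold higher. Apoa2, an apolipoprotein, had 26.6, 13.2, 993 and 1777 CPM (6.01 ± 0.49, adjusted p = 0.0017), and tfa, transferrin, had 8.404, 0, 502 and 721 CPM (6.77, adjusted p = 0.00299). Hamp, the iron hormone hepcidin, had 7.003, 7.91, 142 and 204 CPM. The trypsin prss59.2 had no UMI at 48 hpf and 52.6 and 102 CPM at 72 hpf, at least 28.2-fold higher, and was not called without the 72 hpf sqet33mi59BEt library (adjusted p = 0.143). Of 21 liver genes tested 18 rose, none fell and all 21 lacked overlap (median 5.49, or 4.46 with genes at 0 set to their bound), and both exocrine pancreas genes tested rose. Of all genes tested 1.23% rose and 23.5% lacked overlap on the higher side. Both lists were drawn up with the values known, and members without a UMI at 48 hpf passed the filter only through 72 hpf. The counts therefore describe the tested members and are no test of a rise.

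This group moved in the whole library. Other cells had 293 and 357 CPM of fabp10a at 72 hpf, and Erythrocytes had 490 and 504 CPM. For apoa2 the 72 hpf values were 1049 and 2588 CPM in other cells, and 1580 and 3933 CPM in Erythrocytes. Summed over the liver list, nerves had 140, 55.3, 3519 and 4690 CPM, other cells 237, 80.8, 3996 and 7594 CPM, and Erythrocytes 253, 251, 4574 and 10996 CPM. In nerves the level at 72 hpf was thus below that in Erythrocytes in both libraries. Of the 20 liver and pancreas genes that rose in nerves, 19 also rose in other cells, and of the 29 liver genes tested for a difference between the stage effects 0 passed, where 1.53% of all genes did, so that this count is near the background. Of the 20 genes, 7 were above their level in Erythrocytes in the 72 hpf sqet31Et nerves, among them hamp (142 against 115 CPM) and ttc36 (78.8 against 57.7 CPM), and 0 in sqet33mi59BEt. The part of free RNA in this rise was not tested.

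**Figure D3:**
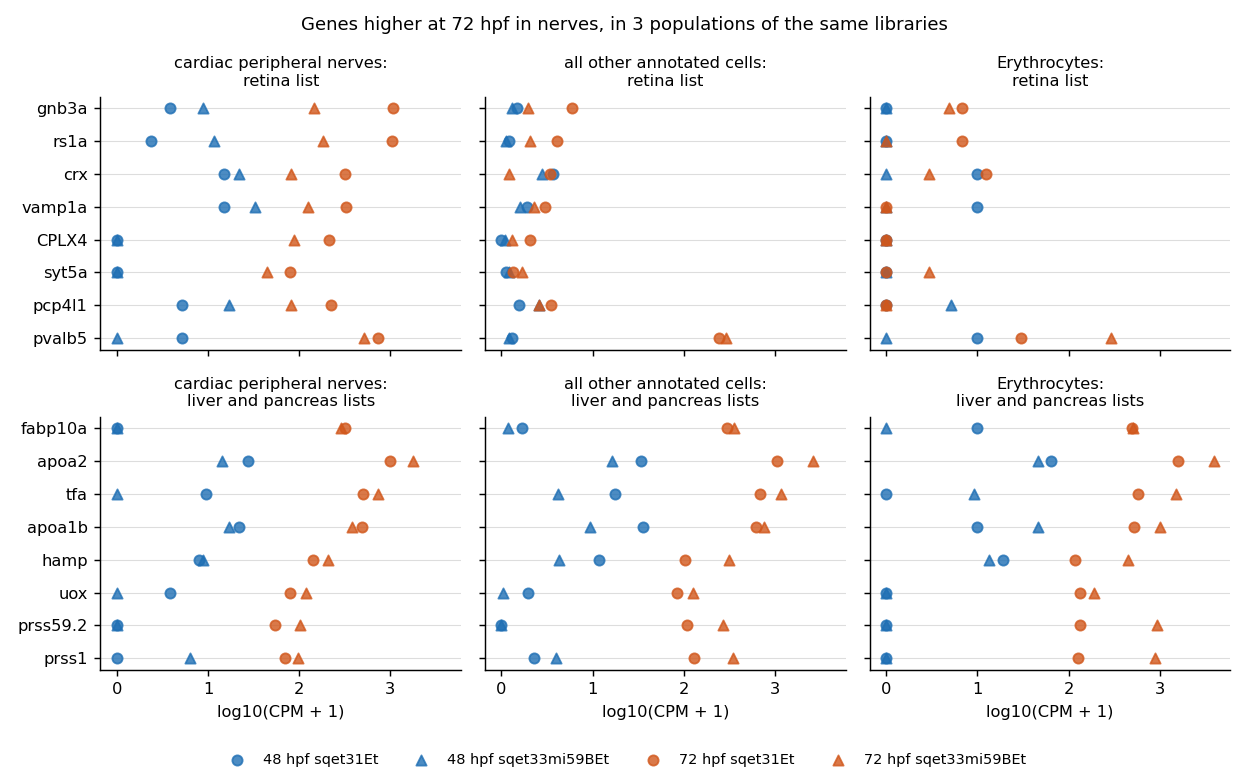
Level of 8 retina genes (upper row) and 8 liver or pancreas genes (lower row) that rose at 72 hpf in nerves, as log10(CPM + 1) in nerves (left), all other annotated cells (middle) and Erythrocytes (right) of each library. The retina genes other than pvalb5 rise in nerves and stay low in both other populations, although rs1a also rose in all other cells, to 3.02 and 1.03 CPM. Liver and pancreas genes rise in all 3.

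Of the other 28 genes that rose, 18 also rose in all other cells, where 851 of 16710 genes (5.09%) were higher. For some genes of signalling the stage effect in nerves exceeded that in the sum of all other cells. FOS, the immediate early factor, had 151, 256, 723 and 852 CPM (1.96 ± 0.36, adjusted p = 0.0379), and its stage effect exceeded that in other cells by 1.62 (adjusted p = 1.05e-09). DUSP2, a MAP kinase phosphatase, had 1.40, 5.27, 92.0 and 51.0 CPM, with a difference from other cells of 4.03. GEM, a small GTPase that binds calcium channels, had 1.40, 2.64, 52.6 and 36.4 CPM, with a difference of 4.41. FOS and DUSP2 started low in nerves, which ranked 16 and 15 of the 16 clusters at 48 hpf. Other cells then had 674 and 1148 CPM of FOS, and 39.7 and 59.4 CPM of DUSP2. At 72 hpf nerves ranked 10 and 8 of 18 clusters, so neither gene was highest in nerves. For GEM nerves ranked 7 of 16 and 3 of 18. In Neural crest cells FOS also lay higher at 72 hpf (1247, 3232, 5496 and 7457 CPM), and the difference from crest cells did not pass the test for FOS (0.18, adjusted p = 0.802), DUSP2 (2.41, adjusted p = 0.0556) or GEM (4.25, adjusted p = 0.115). Calm1b, a calmodulin, had 96.6, 76.4, 460 and 320 CPM (2.17 ± 0.36, adjusted p = 0.0265) and kept its call when each library was left out. FOS was lost without the 48 hpf sqet31Et (1.58, adjusted p = 0.126) or the 72 hpf sqet33mi59BEt library (1.83, adjusted p = 0.125), and GEM likewise (adjusted p = 0.0613 and 0.148). The difference from other cells held for FOS without each library, and was lost for DUSP2 without 72 hpf sqet31Et (adjusted p = 0.0567) and for GEM without any library but 72 hpf sqet33mi59BEt (0.141 to 0.767). The phosphatase regulator ppp1r17 had 58.8, 15.8, 239 and 801 CPM, and the clock repressor nr1d2a 12.6, 18.4, 92.0 and 102 CPM, and both also rose in other cells. Of all 57 genes that rose, 10 kept the call when each library was left out in turn, and 32 were lost without the 72 hpf sqet33mi59BEt library, among them ppp1r17 (2.55, adjusted p = 0.133) and nr1d2a (2.58, adjusted p = 0.106).

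**Figure D4:**
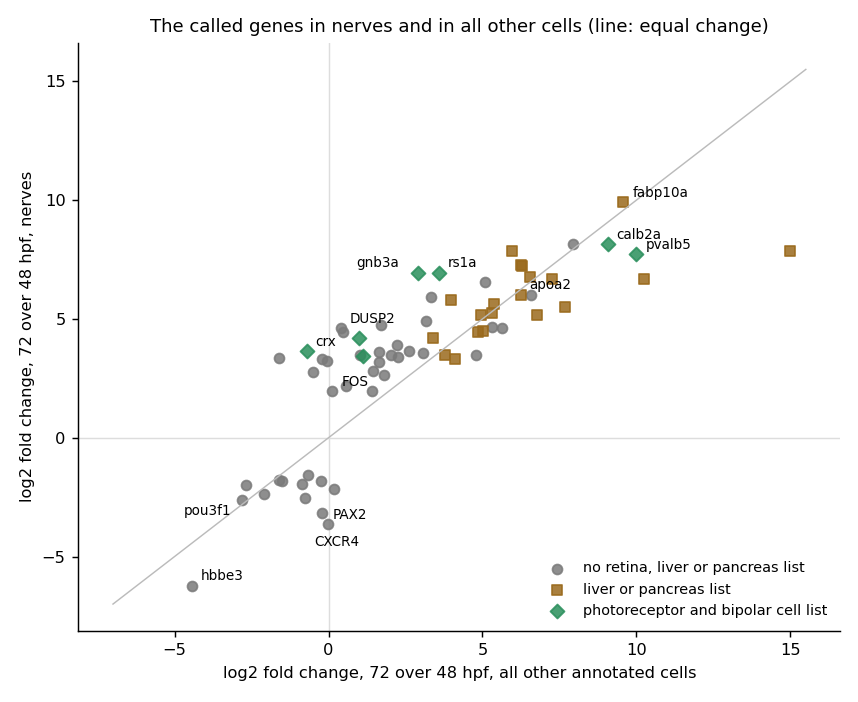
Fitted log2 fold change, 72 over 48 hpf, in nerves (vertical) against all other annotated cells (horizontal) for the 68 of 70 called genes that were tested in both; the line marks equal change, and values of genes without a UMI at 48 hpf are no measure of size. Most liver and pancreas genes (squares) lie near the line, retina genes such as gnb3a, rs1a and crx (diamonds) above it, and CXCR4 and PAX2 below it.

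Shares of cells with at least 1 UMI were also compared, with every cell thinned to 500 UMIs. At this depth a share moves with the level per cell as well. Like the summed level, it therefore does not separate fewer cells with a gene from less of it per cell. Elavl3 was found in 52.7, 55.3, 32.6 and 27.8% of nerve cells, against 72.9, 75, 51.5 and 41.3% unthinned. In Erythrocytes, with a median of 601, 604.5, 1029 and 679 UMIs, the thinned share was at most 5.71%. SOX11 was found in 37.8, 45.7, 14.5 and 19.0% of nerve cells and zfhx3a in 34.0, 28.4, 7.05 and 7.94%, with no overlap between stages. Pou3f1 went from 11.97 and 17.3% to 1.32 and 0.794%. Alcama was found in 19.4, 25.5, 5.73 and 3.97% of nerve cells, and in 14.3, 8.42, 10.2 and 13.4% of Erythrocytes, so its share at 72 hpf was below that in Erythrocytes, which had 388, 185, 386 and 303 CPM of alcama. Whether Erythrocytes are a blank for this gene was not tested.

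Gnb3a was found in 0.266, 0.481, 16.7 and 3.97% of nerve cells at this depth (0.532, 0.962, 18.1 and 3.97% unthinned), and in at most 0.680% of Erythrocytes. For rs1a the shares were 0.266, 0.481, 15.4 and 6.35%, and for vsx1 1.06, 1.92, 12.8 and 7.14%. At this depth, cells with a UMI of crx, gnb3a or rs1a numbered 3, 2, 50 and 10. These were 0.798, 0.962, 22.0 and 7.94% of the nerve cells, and at 72 hpf an elavl3 UMI was found in 1 of the 50 and in 0 of the 10. Among the remaining cells elavl3 was found in 52.5, 55.8, 41.2 and 30.2%, so the gap between the stages in sqet31Et was narrower without them. The part of these cells in the lower elavl3 level was not tested further. Apoa2 was found in 2.93, 0.962, 40.1 and 52.4% of nerve cells and in 2.86, 1.90, 51.0 and 79.0% of Erythrocytes, and hbbe3 in 14.4, 12.98, 0 and 0.794% against 43.4, 51.6, 0 and 3.34%, so that for both genes the 72 hpf shares in nerves were at or below those in Erythrocytes.

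**Figure D5:**
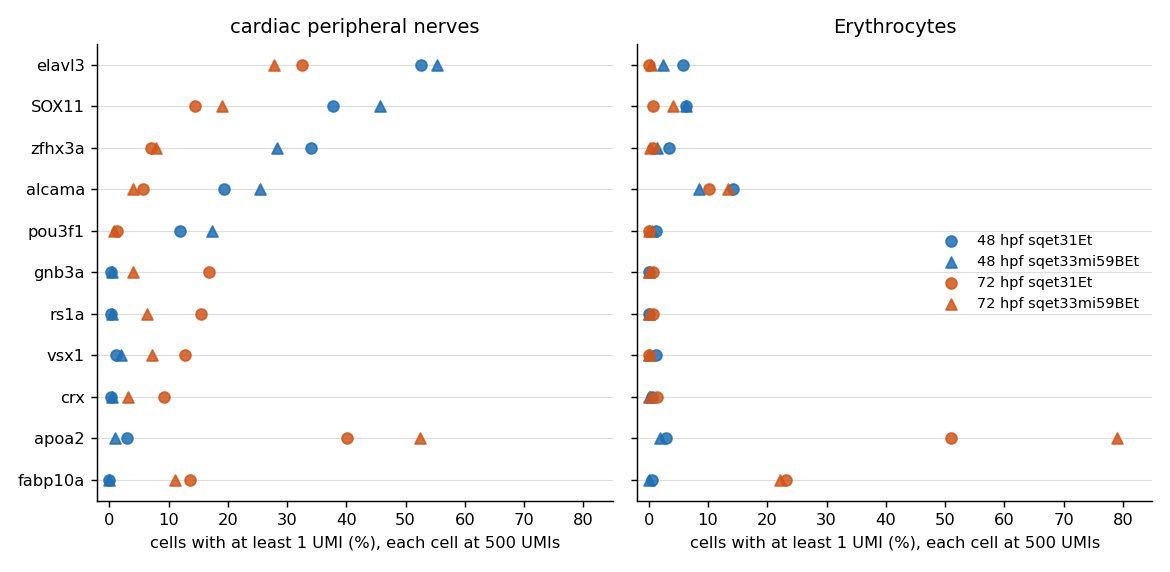
Share of nerve cells (left) and of Erythrocytes (right) with at least 1 UMI of a gene in each library, in percent, with every cell thinned to 500 UMIs. Elavl3, SOX11, zfhx3a and pou3f1 are found in fewer nerve cells at 72 hpf, gnb3a, rs1a, vsx1 and crx in more, mainly in sqet31Et, and apoa2 and fabp10a in more cells of both clusters.

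The stage effect was also compared directly with that in all other cells of the same libraries, which share depth and handling. Of 15145 genes 232 (1.53%) differed, 92 (0.607%) with a higher and 140 (0.924%) with a lower effect in nerves. In a fit without the library as a term none of these was called (edgeR, 942 genes at an unadjusted p under 0.05). For part of the 232 genes the values moved in the other cells. The synaptic vesicle protein sypa had 119, 116, 145 and 87.4 CPM in nerves (0.04, adjusted p = 0.976) and rose in other cells from 0.915 and 0.692 to 2.94 and 5.17 CPM, a difference of -2.404. For the axonal motor kif1aa the values were 291, 166, 134 and 153 CPM in nerves, and 2.66, 1.47, 5.39 and 5.69 CPM in other cells, a difference of -2.37, with neither stage effect called. The differences of map1b, maptb, gng3, syt1a and kif5aa were also negative (-2.75 to -1.23), none of the 5 being called in nerves or in other cells. DLX1, DLX2 (ENSDARG00000079964) and DLX5, forebrain and arch factors, were not called in nerves either but fell in other cells, with differences of 1.85 to 2.33. For sypa and the 3 DLX genes the difference was lost without at least 1 of the libraries, for DLX5 without 48 hpf sqet33mi59BEt only (1.16, adjusted p = 0.426) and for sypa without each of 48 hpf sqet31Et, 48 hpf sqet33mi59BEt and 72 hpf sqet33mi59BEt (0.0894 to 0.206).

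Against the Neural crest cells (146, 216, 202 and 219 cells) the stage effect differed for 191 of 6529 genes (2.93%), 46 (0.705%) higher and 145 (2.22%) lower in nerves. Without the library as a term 4 were called. CXCR4 (-4.88), alcama (-3.94), SOX11 (-1.34) and both RBPMS2 copies (-3.93 and -3.09) were among those with the lower effect. Of the mitochondrially encoded genes 9 of 13 had a lower effect in nerves than in crest cells, and 9 of 13 also a lower one than in all other cells. The replication genes mcm3 (3.55), mcm5 (2.53) and dut (2.11) had the higher effect in nerves, where mcm5 and dut were not called and mcm3 was too low to be tested. Of 30 stress and immediate early genes tested against the crest 8 had the lower effect in nerves and 0 the higher, while against all other cells 5 of 31 had the higher and 0 the lower. FOS is not counted in this list. Of 17 S phase genes tested against the crest 5 passed, all with the higher effect. The summed level of this list was 436, 430, 594 and 619 CPM in nerves, and 2427, 1835, 803 and 724 CPM in crest cells, without overlap between the stages in either. Without the 72 hpf sqet31Et library the difference from crest cells was lost for CXCR4 (-5.10, adjusted p = 0.289), mcm3 (0.129), mcm5 (0.593) and dut (0.125), and without 48 hpf sqet31Et for SOX11 (-1.11, adjusted p = 0.179), mcm3 (0.207) and mcm5 (0.357). It held for alcama and for RBPMS2 ENSDARG00000079578 without each library.

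The transgene for mRFP had 78.4, 60.6, 18.4 and 21.8 CPM in nerves (-1.83, adjusted p = 0.12), and 868, 345, 145 and 81.9 CPM in other cells. EGFP had 1 UMI in all nerve cells of the 4 libraries. Cardiomyocyte genes, which belong to another cell type, had a summed level of 2200, 1576, 1430 and 1005 CPM in nerves and 19422, 6117, 6634 and 3771 CPM in other cells. Hemoglobin and other erythrocyte genes had 584, 938, 105 and 3270 CPM in nerves, and lens genes had 157, 50.1, 2.63 and 0 CPM. The level of erythrocyte genes moved in nerves in the same order as in other cells (337, 696, 158 and 3750 CPM), and the part of these genes in the stage effects was not tested.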

How the data were processed

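The authors processed the reads with Cell Ranger on GRCz11 and annotated the cells in Seurat, and deposited UMI counts per gene and cell together with a table of the cells they kept. That table holds the cluster, the cell cycle phase and the percent of mitochondrial UMIs of each cell, as the authors made them; cluster and phase are names. Only protein-coding genes were counted. The authors removed cells by gene number and by mitochondrial and hemoglobin share, and doublets with DoubletFinder, and no further doublet caller was run. The count files hold 52447 barcodes, of which the 34676 in the authors' table were used.

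Counts of the nerve cells were summed per library, as were those of all other annotated cells, Neural crest cells and Erythrocytes. Sums were tested with edgeR 4.0.16 (R 4.3.3): filterByExpr, TMM scaling and the quasi-likelihood test of 72 over 48 hpf, 2 libraries a stage, with Benjamini-Hochberg adjustment over all genes tested. Interactions had the library as a term. DESeq2 1.42.0 was an alternative. CPM are counts scaled to the TMM-adjusted sum, except for the ranking of clusters, which uses the raw sums of clusters with at least 100000 UMIs at a stage. At 48 hpf the cluster Neuronal cells was not among those ranked. For shares of cells, each cell was thinned to 500 UMIs (no nerve cell had fewer), and intervals and bounds cover counting error only. A group without a UMI was set to 3 counts for a bound.

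Of 25434 identifiers 23608 had a symbol in the gene name table. Symbols in capitals are the table's human symbols, and an identifier is given where several share one (3442 identifiers); reads shared by near-identical copies may be split between them.

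Genes named are the 15 largest changes in each direction among called genes with a symbol of their own, list members past a threshold, the genes that the study names for these cells, the 10 largest differences in each direction of each interaction, the most abundant members of each list, and the reporters. FOS, OTP, calm1b, nr1d2a, ppp1r17, pcp4l1, and the lists of photoreceptor and bipolar cell, retinal ganglion cell, liver and exocrine pancreas genes were chosen after their values were seen. Some genes that this rule names are not reported here. The members and all lists were chosen with earlier results of these data known. The depth of the libraries was 24073652 to 109489623 UMIs. Libraries of the same stage differed by more than sampling noise (chi-square per degree of freedom 5.01 and 6.997).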

Additional observations from a re-analysis of the deposited data

Results flagged for a closer look

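The stage effect in nerves differed from that in all other cells for 232 genes by the interaction test. The largest negative differences (log2, nerves minus other cells) were those of MNX1 (-6.41), pcdh1g13 (-5.76), NKX2-2 (-5.00), KIDINS220 (ENSDARG00000031240, -4.29), pnoca (-4.22), CXCR4 (ENSDARG00000041959, -3.91), mafba (-3.68), ppp2r2ba (-3.44), krt1-19e (-3.32) and PAX2 (ENSDARG00000028148, -3.28). MNX1, a motor neuron factor, had 44 of its UMIs at 48 hpf in the sqet33mi59BEt library and 1 in the other. NKX2-2, a factor of ventral neural tube, had 38, 14, 2 and 1 UMIs. Pnoca and krt1-19e had few UMIs in nerves and were higher in other cells at 72 hpf.

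Among the largest positive differences were those of FST (ENSDARG00000057992, 11.90), P2RX3 (ENSDARG00000029718, 6.20), CRYGN (ENSDARG00000030411, 5.37), CRX (4.77), GEM (4.41), crx (4.23), DUSP2 (4.03), neurod4 (4.02) and gnb3a (3.91). FST rests on 5 UMIs in the 72 hpf sqet33mi59BEt library and 0 in the other nerve libraries. P2RX3 had 1, 0, 6 and 6 UMIs. The lens crystallin CRYGN was lower at 72 hpf in nerves as well (29, 5, 2 and 1 UMIs) and went from 70.19 and 252 to 0.535 and 0.370 CPM in other cells.

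The stage effect in nerves differed from that in Neural crest cells for 191 genes. The largest negative differences were those of tbx20 (-7.02), si:dkey-248g15.3 (-6.44), syne1b (-5.85), hmx4 (-5.78), SIPA1 (-5.74), abi3bpb (-5.66), dachd (-5.45), col14a1a (-5.27), CXCR4 (-4.88) and adcyap1b (-4.84). Of these, CXCR4 was called in nerves themselves. The cardiac factor tbx20 had 22, 4, 1 and 1 UMIs in nerves and went from 5.999 and 3.23 to 125 and 92.1 CPM in crest cells. Among the largest positive differences were those of FST (9.36), EFEMP2 (ENSDARG00000094324, 5.65), apoc1 (5.01), mcm3 (3.55), DLX3 (3.22), SLC30A1 (ENSDARG00000005463, 3.16), ENSDARG00000105274 (2.98) and mfge8b (2.93), most of them with fewer than 20 UMIs in each nerve library.

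The median number of UMIs per nerve cell went in opposite directions in the 2 lines, 578.5 higher at 72 hpf in sqet31Et and -127.5 in sqet33mi59BEt. With 1 library per line and stage this difference was not tested.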

How the results depend on the processing

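The count of 70 genes that differed between the stages in nerves moved by over 1.5 times in several alternatives. It was 351 without a filter on low counts, 41 with the sums thinned to 1 total, 26 with cells thinned to 500 UMIs, 21 among cells with at least 1000 UMIs, 20 among genes at least 2 times higher in nerves than in other cells, 15 among cells under 10% mitochondrial UMIs and 10 among cells with an elavl3 UMI. Fewer genes (1573 to 4212) could be tested in those subsets. Leaving out 1 library gave 40 to 182 genes: 40 without 72 hpf sqet33mi59BEt, 83 without 72 hpf sqet31Et, 152 without 48 hpf sqet31Et and 182 without 48 hpf sqet33mi59BEt, of which 25, 30, 59 and 64 were among the 70. DESeq2 called 93 genes, 65 of them among the 70, and other scalings 74 and 88. Between 28 and 70 of the 70 could be tested in each of these, and none of those tested reversed its direction.

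With the line as a replicate block 90 genes were called, 69 of them among the 70. The labels give the line, not a shared batch, and deviations of the same line at both stages had r = 0.030 across 4625 genes, which are not independent. For the difference from other cells, 96 genes were called when only genes testable in nerves alone were used (an alternative chosen after seeing the data), 0 with no replicate block, and 70 to 179 without 1 library, 70 being without 48 hpf sqet31Et and 113 without 48 hpf sqet33mi59BEt. For the difference from crest cells the counts were 122, 4 and 61 to 159 (61 without 72 hpf sqet31Et, 98 without 48 hpf sqet31Et and 116 without 48 hpf sqet33mi59BEt), and 101 without a filter. Left-out libraries reversed the difference of 3 further list members: from other cells for ins (-2.99 to 3.14, the latter without 48 hpf sqet31Et) and gcga (-2.98 to 0.036, the latter without 48 hpf sqet31Et), and from crest cells for myh6 (-9.33 to 0.14, the latter without 72 hpf sqet33mi59BEt). Why these values moved was not tested.

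Leaving out 1 library gave stage differences of -124.75 to 575.75 UMIs per cell, -17 to 13 genes and -5.24 to 5.82 percentage points of cycling cells. Without thinning the difference in genes was 67, and among cells with at least 1000 UMIs cycling cells were 14.0 points higher at 72 hpf (exact permutation p = 0.333, the smallest possible). The 72 hpf sqet33mi59BEt sum, with 139250 UMIs, limits what low genes can show.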
